A study of Mus with 2 samples.

Results

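Integrins, their ligand nephronectin and the Fraser complex genes were followed across the cell types of the newborn mouse kidney. The 9 genes were taken by symbol from the 28693 features of the count tables: Npnt, Itga8, Itgb1, Itga1, Itga3, Itga6, Fras1, Frem1 and Frem2. All 9 symbols were found. RNA had been counted in single cells of 2 whole-kidney libraries from mice at postnatal day 0 with the genotype Rbpj c/- ; Foxd1cre/+, in which the floxed Rbpj allele is removed by a Cre expressed from Foxd1, a gene of the renal interstitial lineage. Cells in which this Cre is not active keep the floxed allele beside the minus allele. Which of the types had Cre activity, podocytes included, was not measured here. The control genotype named in the design, Rbpj c/+ ; Foxd1cre/+, carries the same Cre and was not analysed here. No value below therefore measures the loss of Rbpj, and each comparison is between cell types of mutant kidneys. The labels did not say whether the libraries came from separate animals or from pooled kidneys.

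Integrins are receptors made of an alpha and a beta chain that tie a cell to the extracellular matrix and signal from it. The beta chain encoded by Itgb1 pairs with each of the 4 alpha chains followed here. In the embryonic kidney the ureteric bud lays down nephronectin, a matrix protein, and the surrounding mesenchyme carries its receptor, integrin alpha8 beta1. Their contact maintains Gdnf, the growth factor that makes the bud branch. FRAS1, FREM1 and FREM2 are large matrix proteins that form one complex at the basement membrane, and nephronectin is held at that membrane with their help. Loss of FRAS1 or FREM2 causes failure of kidney development in mice and Fraser syndrome in people.

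Per RefSeq on build GRCm38.p6, Npnt spans chromosome 3, 132881745 to 132950291, and Frem2 lies on the same chromosome at 53513938 to 53658593. Itga8 spans chromosome 2, 12106632 to 12301985, and Itga6 chromosome 2, 71786886 to 71858427. Itgb1 spans chromosome 8, 128685654 to 128733579. Itga1 spans chromosome 13, 114958079 to 115101964, and Itga3 chromosome 11, 95044475 to 95076844. Fras1 spans chromosome 5, 96373777 to 96784733, and Frem1 chromosome 4, 82897920 to 83052506. Some of these loci overlap another counted gene, Itga1 with Pelo, Itga8 with E030013I19Rik and Fras1 with Gm33050. The strand used in counting was not given in the sources used here, so reads from such overlaps could not be told apart.

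The libraries held 163405630 and 135436576 unique molecular identifiers (UMIs, tags that mark single captured molecules). After removal of barcodes under 2000 UMIs, over 10% mitochondrial UMIs or scored as doublets, 5910 barcodes of replicate 1 and 4937 of replicate 2 remained, with a median of 11716.5 and 12196 UMIs. The 2 libraries shared 8 barcodes among those with at least 2000 UMIs. A barcode was given a type from fixed marker genes, none of which was one of the 9 genes. This typed 9333 of 10847 barcodes (86.0%), and 11 types had at least 20 barcodes in each library. They were nephron progenitor-like, early nephron-like, podocyte-like, proximal tubule-like, loop of Henle-like, ureteric epithelium-like, stroma-like, mural-like, endothelial-like, immune-like and erythroid-like. The ending is dropped below, but the names rest on markers alone. Levels are CPM, the UMIs of a gene scaled to a total of 1000000 UMIs of that type in a library. A UMI tags the 3' end of 1 transcript, so levels were not scaled by length and are compared between types, not between genes.

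Some types were mixed. The leading genes of the ureteric epithelium included Sprr2f and Upk3a, which are known from urothelium, beside Aqp2 of the collecting duct. Of 221 mural barcodes, 65 lay in a cluster led by Ankrd1 in which the nephron gene Pax8 stood at 122 and 137 CPM and the smooth muscle gene Myh11 at 30.9 and 36.4 CPM. Another 48 lay in a cluster with Myh11 at 6160 and 4240 CPM and no Pax8 UMI. The interstitial stroma, a subtype described further on, had Tagln, Myh11 and Hba-a2 among its leading genes beside 2 of its own markers. Free RNA was gauged in 2 ways, in erythroid cells, which should lack these genes, and in 39702 barcodes per library with 10 to 100 UMIs. In the near-empty barcodes Npnt stood at 165 and 144 CPM, Itgb1 at 442 and 414 CPM, Itga6 at 98.2 and 123 CPM, and the other 6 genes between 9.68 and 44.5 CPM. Median depth was 4594 and 4579 UMIs per erythroid barcode, against 7378 to 26928 in the other 10 types.

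**Figure D1:**
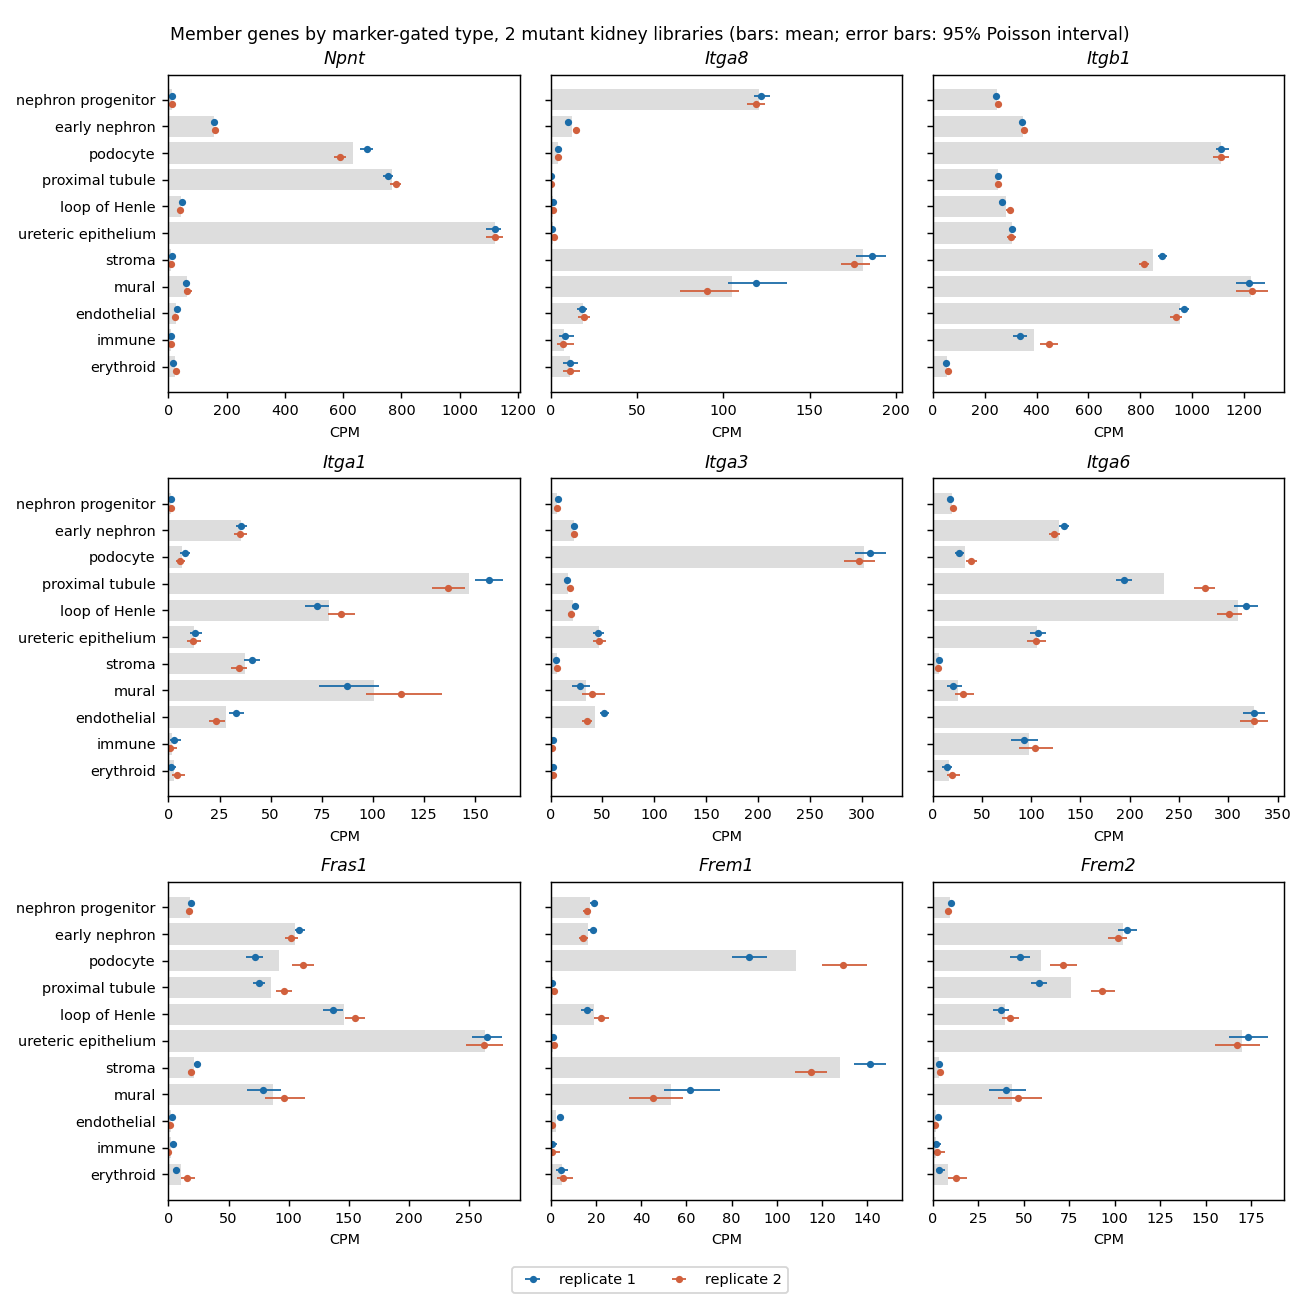
Level of each of the 9 genes (CPM, linear axis from 0, scaled per panel) in the 11 marker-gated types. Points are the 2 libraries with 95% Poisson intervals (up to 3 counts where none was seen), which cover counting error only, and grey bars are their means. Npnt reached 1120 CPM in ureteric epithelium in both libraries, and Itga8 stood at 186 and 176 CPM in stroma.

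Nephronectin RNA lay in epithelia. Npnt stood at 1120 CPM in the ureteric epithelium of both libraries. The proximal tubule followed with 754 and 781 CPM, and podocytes with 680 and 588 CPM. In these 3 types the counting intervals of neighbours in the order did not overlap. The early nephron had 156 and 160 CPM, and the mural gate 61.4 and 65.0 CPM. The loop of Henle, which is also nephron epithelium, had only 47.7 and 39.0 CPM. Endothelial cells had 29.1 and 23.2 CPM. Nephron progenitors (13.2 and 11.4 CPM), stroma (10.4 and 7.55 CPM) and immune cells (7.78 and 8.14 CPM) lay below the erythroid level of 16.6 and 26.0 CPM, so Npnt in them was not separable from free RNA. Shares of barcodes with a UMI were taken after thinning to 4600 UMIs, and barcodes under that depth were left out, 248 of 495 and 189 of 371 erythroid and 117 of 735 and 78 of 490 endothelial ones among them, and 1 to 62 per library in each other type. On that basis Npnt was seen in 91.8% of proximal tubule, 87.5% of podocyte and 84.9% of ureteric barcodes, in 38.4% of early nephron barcodes and in 5.67% of erythroid barcodes (means of 2 libraries). Without thinning, the shares were 98.8%, 93.8%, 95.9%, 64.5% and 6.13% in the same order. Of all Npnt UMIs in the 11 types, 36.6% lay in the proximal tubule, 28.9% in the ureteric epithelium and 16.9% in podocytes.

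The receptor chain of nephronectin was highest in other types. Itga8 stood at 186 and 176 CPM in stroma, 122 and 119 CPM in nephron progenitors, and 119 and 90.8 CPM in the mural gate. The mural libraries overlapped those of the progenitors. Endothelial cells had 18.1 and 19.1 CPM and the early nephron 9.89 and 14.6 CPM, next to 11.0 and 11.5 CPM in erythroid cells. In the 3 types richest in Npnt, Itga8 lay below the erythroid level. Podocytes had 4.54 and 4.43 CPM, and ureteric epithelium had 1.09 and 1.85 CPM from 7 and 8 UMIs. The proximal tubule gave 2 UMIs in replicate 1 and 0 in replicate 2, where a count of 0 allows up to 0.357 CPM (3 counts). The loop of Henle, with less Npnt, had 1.32 and 1.44 CPM of Itga8. Thinned barcodes with an Itga8 UMI made up 39.8% of stroma and 38.5% of nephron progenitors, against 2.24% of erythroid barcodes. Without thinning these shares were 53.2%, 76.5% and 2.09%. Nephron progenitors held 51.7% of all Itga8 UMIs in the 11 types and stroma 36.0%.

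The shared beta chain was measured in every type. Itgb1 stood at 1220 and 1230 CPM in the mural gate, 1110 CPM in podocytes of both libraries, 966 and 936 CPM in endothelial cells, and 885 and 813 CPM in stroma. In the Myh11-rich mural cluster Itgb1 was 1100 and 890 CPM, from 265 and 219 UMIs. That was close to podocytes in replicate 1 and below them in replicate 2. Podocytes led when cells were typed by cluster (1020 CPM) or thinned before summing (1250 CPM). The other typed cells formed a lower group. Immune cells had 336 and 447 CPM, early nephron 345 and 350, ureteric epithelium 306 and 303, loop of Henle 268 and 296, proximal tubule 253 in both libraries, and nephron progenitors 242 and 252 CPM. Erythroid cells had 50.8 and 57.4 CPM. From ureteric epithelium down to nephron progenitors, neighbours in this order did not differ beyond their counting intervals.

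Each of the other alpha chains was highest elsewhere. Itga3, the partner of Itgb1 in the laminin receptor of podocyte foot processes, stood at 308 and 297 CPM in podocytes. Its next levels were 45.8 and 46.7 CPM in ureteric epithelium and 51.5 and 34.9 CPM in endothelial cells, which overlapped each other. Podocytes held 51.8% of all Itga3 UMIs. Itga6, another laminin receptor chain, stood at 326 CPM in endothelial cells of both libraries and at 318 and 301 CPM in the loop of Henle, with overlapping intervals. It followed at 194 and 276 CPM in the proximal tubule, 133 and 123 CPM in the early nephron and 107 and 105 CPM in the ureteric epithelium. Stroma had the lowest Itga6 level, 6.77 and 5.75 CPM, below the erythroid 14 and 20 CPM. Itga1, a collagen receptor chain, stood at 157 and 137 CPM in the proximal tubule, 87.4 and 114 CPM in the mural gate and 72.5 and 84.4 CPM in the loop of Henle. The Myh11-rich mural cluster had 211 and 215 CPM of Itga1. Nephron progenitors had 1.17 and 1.31 CPM, from 25 UMIs in each library.

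The make-up of the alpha chains differed between types. Itga8 gave 81.8% of the UMIs of the 4 alpha genes in nephron progenitors and 78.5% in stroma (means of 2 libraries, SD 1.30 and 1.02 points). In podocytes Itga3 gave 87.3%. Itga6 gave 78.4% in endothelial cells, 75.3% in the loop of Henle, 64.6% in the early nephron and 63.7% in the ureteric epithelium, where Itga3 added 27.8%. The proximal tubule combined Itga6 (58.5%) with Itga1 (37.2%). The mural gate as a whole had no single leading chain, with 39.7% Itga8 and 37.8% Itga1, but it pools unlike cells. Itga1 led in the Myh11-rich cluster, with 51 and 53 UMIs against 5 and 21 of Itga8. In the Ankrd1-led cluster Itga1 also led, with 50 and 63 UMIs against 3 and 5 of Itga8. Capture can differ between the 4 transcripts, so a share is to be compared between types.

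**Figure D2:**
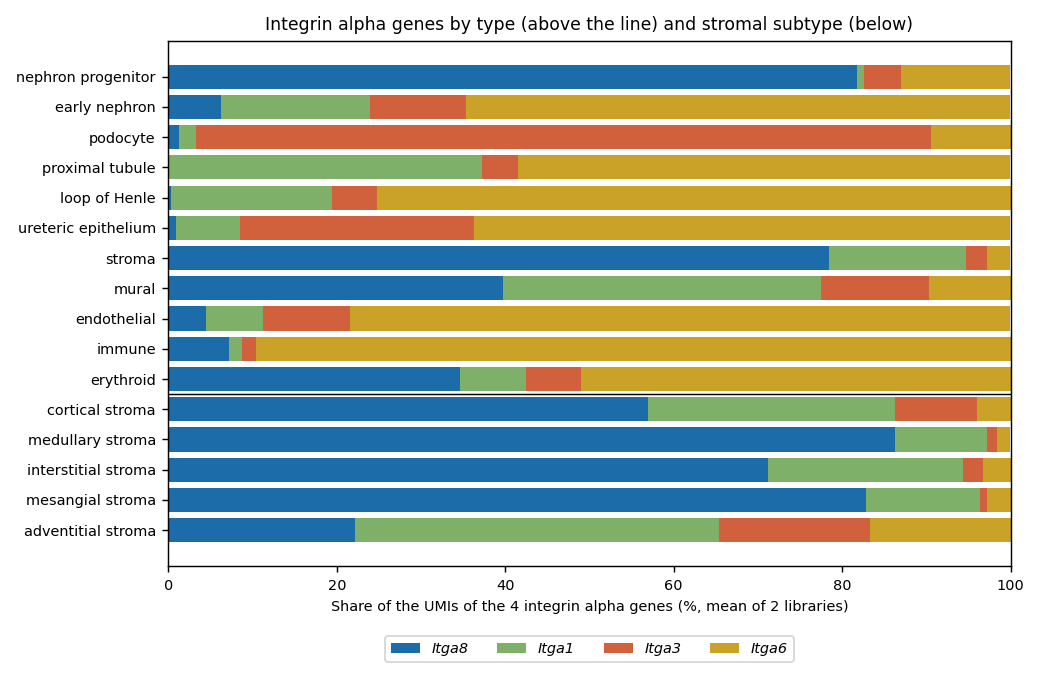
Share of the UMIs of Itga8, Itga1, Itga3 and Itga6 (%, mean of 2 libraries) in each type above the line and in each stromal subtype below it. Itga8 makes up 81.8% in nephron progenitors and 6.19% in the early nephron, where Itga6 makes up 64.6%.

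Among the Fraser complex genes, Fras1 and Frem2 were highest in ureteric epithelium, and Frem1 was highest in stroma and podocytes. Fras1 stood at 265 and 263 CPM in ureteric epithelium, 137 and 155 CPM in the loop of Henle and 109 and 102 CPM in the early nephron. Podocytes (71.7 and 112 CPM), the mural gate (78.7 and 96.1 CPM) and the proximal tubule (75.3 and 96.0 CPM) overlapped one another. Frem2 stood at 173 and 167 CPM in ureteric epithelium, 107 and 102 CPM in the early nephron, 58.4 and 93.1 CPM in the proximal tubule and 47.7 and 71.7 CPM in podocytes. Its proximal tubule value had the largest ratio between libraries, 1.59, among the 79 of 99 gene and type values with at least 20 UMIs in each library. The median of that ratio was 1.15. Frem1 was distributed differently, with 141 and 115 CPM in stroma, 87.7 and 129 CPM in podocytes and 61.4 and 45.4 CPM in the mural gate. The libraries of stroma and podocytes overlapped, and podocytes came first in replicate 2. Ureteric epithelium, the richest in Fras1 and Frem2, gave 7 and 6 Frem1 UMIs (1.09 and 1.39 CPM), less than the erythroid 4.42 and 5.49 CPM.

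As a description over the 11 types, the log2(CPM + 1) levels of Fras1 and Frem2 had a Pearson r of 0.94, Npnt and Frem2 of 0.87, and Npnt and Fras1 of 0.74. Npnt and Itga8 had r = -0.66, and Itga8 and Itga6 r = -0.71. The types share libraries and free RNA, so no p is given. Among 10113 other genes with at least 20 CPM in some type, those most like Itga8 were Cped1 (r = 0.943), Tnc (0.932) and Rem1 (0.931). For Npnt they were Dcdc2a (0.912), Cystm1 (0.887) and Dsp (0.886). For Frem1 they were Pkdcc (0.922), Svep1 (0.903) and Aebp1 (0.892), and for Fras1 they were Cxadr (0.947), Garem (0.941) and Frem2 (0.937).

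The tissues on the 2 sides of the nephronectin contact were compared first. Against nephron progenitors, ureteric epithelium had an 82.9-fold higher level of Npnt, a log2 fold change of 6.37 ± 0.12 (SE; adjusted p = 1e-19), with 6.29 and 6.47 in the single libraries. The ureteric gate pools the tip, which meets the progenitors and had 516 and 481 CPM of Npnt, with the collecting duct, which had 1690 and 1680 CPM, so the fold of the tip alone is smaller and was not tested. Itga8 was lower by a log2 fold change of -6.55 ± 0.24 (adjusted p = 9.7e-16). The direct ratio of Itga8 UMIs was 86.5 in favour of progenitors, with a counting interval of 52.4 to 155. These tests, and all those below, are edgeR quasi-likelihood tests on UMI sums per library and type with Benjamini-Hochberg adjustment over all genes tested, n = 2 libraries, and a call means an adjusted p under 0.05. They measure only the spread between these 2 libraries, which may be technical. Frem2 (4.06 ± 0.18), Fras1 (3.72 ± 0.18), Itga1 (3.21 ± 0.28), Itga3 (2.72 ± 0.16) and Itga6 (2.34 ± 0.14) were also higher in ureteric epithelium, and Frem1 was lower (-3.98 ± 0.47). Itgb1 did not pass, with 0.17 ± 0.08 (adjusted p = 0.083). It passed under 4 alternative settings, where its log2 fold change was 0.19 to 0.35.

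The progenitor levels of Npnt and Itga1 and the ureteric levels of Itga8 and Frem1 lay below those of erythroid cells. The folds of these 4 genes are therefore set against free RNA. The progenitor levels of Frem2 and Itga6 overlapped the erythroid ones in CPM. Thinned shares were 3.86% of progenitors against 1.23% of erythroid barcodes for Frem2, and 9.7% against 2.66% for Itga6. In this comparison 6 of the 9 genes were higher and 2 lower. Of all 15376 genes tested, 55.9% were called (28.3% higher and 27.6% lower), so a call by itself was common. The median log2 fold change of the 9 genes was 2.72, and that of all genes -0.03. Of 36 further genes of integrin adhesion and its ligands, 23 were higher and 7 lower, with a median of 0.73, or 0.75 with genes at 0 UMIs placed at their bound. The largest changes among them were those of Itga2, Fermt1 and Itgb6. Itga2, a collagen receptor chain, gave 89 UMIs in ureteric epithelium and 0 in progenitors, at least 112-fold higher against 3 counts over the progenitors. Fermt1, an epithelial kindlin that activates integrins, had a ratio of 404 (interval 185 to 1100, from 643 against 6 UMIs). For Itgb6, a beta chain of epithelia, the ratio was 196 (75.4 to 726, from 208 against 4 UMIs).

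**Figure D3:**
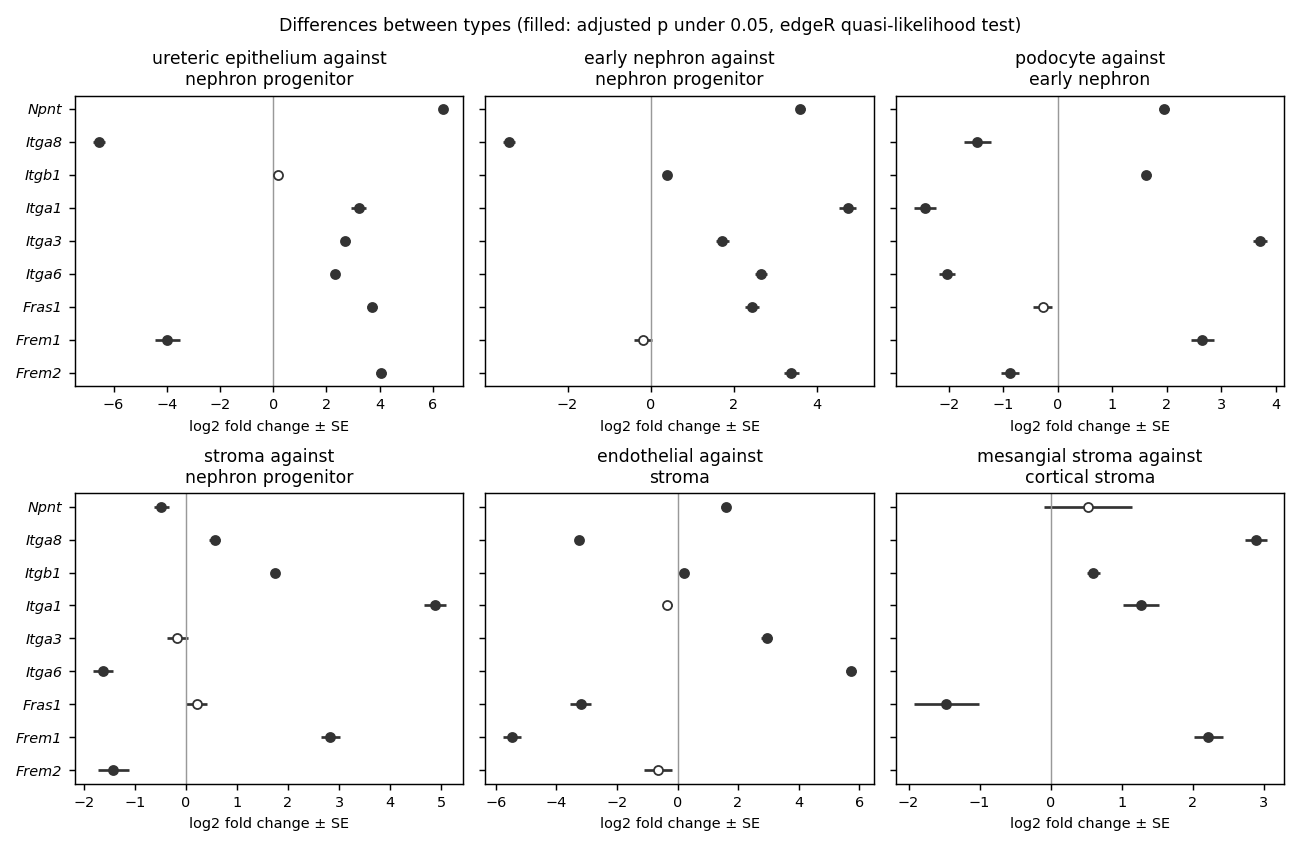
Log2 fold change with its standard error (horizontal axis) of the 9 genes in each of the 6 comparisons. Filled points passed the edgeR test, and genes without a point were not tested. Itga8 lies at -6.55 and Npnt at 6.37 in ureteric epithelium against nephron progenitors, and Itga3 at 3.70 in podocytes against the early nephron.

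The step from progenitor to early nephron, in which mesenchyme becomes epithelium, went with a change of alpha chain. Itga8 fell by 3.41 ± 0.14 on the log2 scale (10.6-fold lower, adjusted p = 9.7e-15), from 122 and 119 CPM to 9.89 and 14.6 CPM. Itga6 was higher by 2.65 ± 0.14 (6.27-fold), Itga1 by 4.73 ± 0.21 and Itga3 by 1.72 ± 0.15. Itgb1 differed little, with 0.40 ± 0.08 (1.32-fold, adjusted p = 0.00028). Npnt (3.59 ± 0.11), Frem2 (3.38 ± 0.18) and Fras1 (2.44 ± 0.17) were higher. Frem1 did not pass, with -0.18 ± 0.21 (adjusted p = 0.53). The count was 7 higher and 1 lower of 9, against 43.4% of all genes called (23.1% higher and 20.3% lower). The median of the 9 genes was 2.44, and that of all genes -0.01. The progenitor levels of Npnt and Itga1 were again below the erythroid ones. Those of Frem2 and Itga6, and the early nephron level of Itga8, overlapped the erythroid ones. This comparison and the previous one share their nephron progenitor sums.

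Of the 36 further genes, 18 were higher and 6 lower in the early nephron, with a median of 0.28. Fermt1 had a ratio of 249 (114 to 679, from 1203 against 6 UMIs) and Itgb6 one of 59.6 (22.9 to 221, from 192 against 4 UMIs). Itga2 gave 29 against 0 UMIs, at least 12-fold higher.

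Early nephron barcodes differed among themselves by cluster, which is a description with no test. The 9 genes and the 36 further genes had been kept out of the clustering. In 339 barcodes with Osr2 at 576 and 602 CPM, a gene of the proximal side of the forming nephron, Npnt stood at 290 and 263 CPM. In 130 barcodes with Sim2 at 298 and 196 CPM, a gene of the distal side, Npnt stood at 26.3 and 27.5 CPM. Fras1 was in the reverse order, with 99.7 and 96.4 CPM in the Osr2-rich cluster and 151 and 148 CPM in the Sim2-rich one. In 463 dividing barcodes, with Mki67 at 525 and 515 CPM, Npnt stood at 111 and 81.9 CPM and Itga8 at 15.2 and 21.9 CPM. In the Osr2-rich cluster Itga8 was down to 1.79 and 1.26 CPM, from 7 and 4 UMIs. Ligand and receptor were rarely seen together. Among thinned early nephron barcodes, 231 of 569 had an Npnt UMI and 22 an Itga8 UMI in replicate 1, and 1 had both. In replicate 2, 186 of 514 had Npnt, 29 had Itga8, and 2 had both. The product of the separate shares was 1.57% and 2.04%, and the share with both was 0.176% and 0.389%.

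Podocytes, which leave the early nephron and build the filter of the glomerulus, were compared with it. Itga3 was higher by 3.70 ± 0.13 on the log2 scale (13.0-fold, adjusted p = 5.2e-16). Frem1 (2.65 ± 0.21), Npnt (1.95 ± 0.09) and Itgb1 (1.62 ± 0.08, 3.08-fold) were also higher. The higher Frem1 came from a smaller part of the gate. The largest podocyte cluster, numbered 15, with 76.9% of the gate's barcodes, had 12.8 and 19.7 CPM of Frem1, which overlapped the 18.6 and 14.5 CPM of the early nephron. Itga1 fell by 2.44 ± 0.21, Itga6 by 2.03 ± 0.15, Itga8 by 1.48 ± 0.25 and Frem2 by 0.88 ± 0.17. The podocyte level of Itga8, 4.54 and 4.43 CPM, was below that of erythroid cells. Fras1 did not pass, with -0.28 ± 0.17 (adjusted p = 0.15), and its single-library values were -0.66 and 0.06. It passed as lower under 4 alternative settings, at -0.31 to -0.71. Of the 9 genes 4 were higher and 4 lower, and 63.5% of all genes were called (29.5% higher and 34% lower). The median was -0.28 for the 9 genes and -0.08 for all genes.

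Of the further genes 16 were higher and 16 lower, with a median of -0.20, or -0.13 with genes at 0 UMIs placed at their bound. Itgb5, a beta chain that pairs with the alpha V chain, was higher by 6.10 ± 0.16 (adjusted p = 7e-18), from 11.8 and 9.57 CPM in the early nephron to 828 and 695 CPM in podocytes. Fermt1 was lower, with 1 UMI in podocytes against 1203 and a ratio of 402 (72.1 to 15900). Vtn, which encodes the matrix protein vitronectin, gave 0 UMIs in podocytes against 33, at least 3.68-fold lower.

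Within the podocyte gate the Fraser genes marked one of its clusters. Cluster 15 held 609 of its barcodes (361 and 248 by library) and cluster 9 held 167 (90 and 77). Pax8, a gene of the early nephron, stood at 28.0 and 30.5 CPM in cluster 15 and at 119 and 141 CPM in cluster 9. Frem1 stood at 246 and 274 CPM in cluster 9 and at 12.8 and 19.7 CPM in cluster 15. Fras1 stood at 173 and 223 against 21.7 and 20.7 CPM, and Frem2 at 135 and 147 against 5.75 and 11.2 CPM. For these 3 genes no library of one cluster came near the other. Npnt showed the reverse, 274 and 243 CPM in cluster 9 and 882 and 874 CPM in cluster 15. Itga3 (224 and 240 against 352 and 351 CPM) and Itgb1 (800 and 776 against 1260 and 1360 CPM) were also higher in cluster 15, while Itga6 was lower there (54.1 and 61.2 against 13.6 and 21.1 CPM). All are descriptions, since clusters were formed from the same cells. The early nephron and podocyte fold changes above average over these clusters.

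Fras1 and Frem2 were also seen together in podocytes. Among thinned barcodes, Fras1 and Frem2 were seen together in 4.03% and 8.83%, and the product of their separate shares was 1.29% and 3.49%. In the ureteric epithelium both were seen in 26.6% and 33.6%, with products of 29.5% and 29.6%. In the early nephron both were seen in 12.5% and 13.2%, with products of 11.8% and 12.7%.

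**Figure D4:**
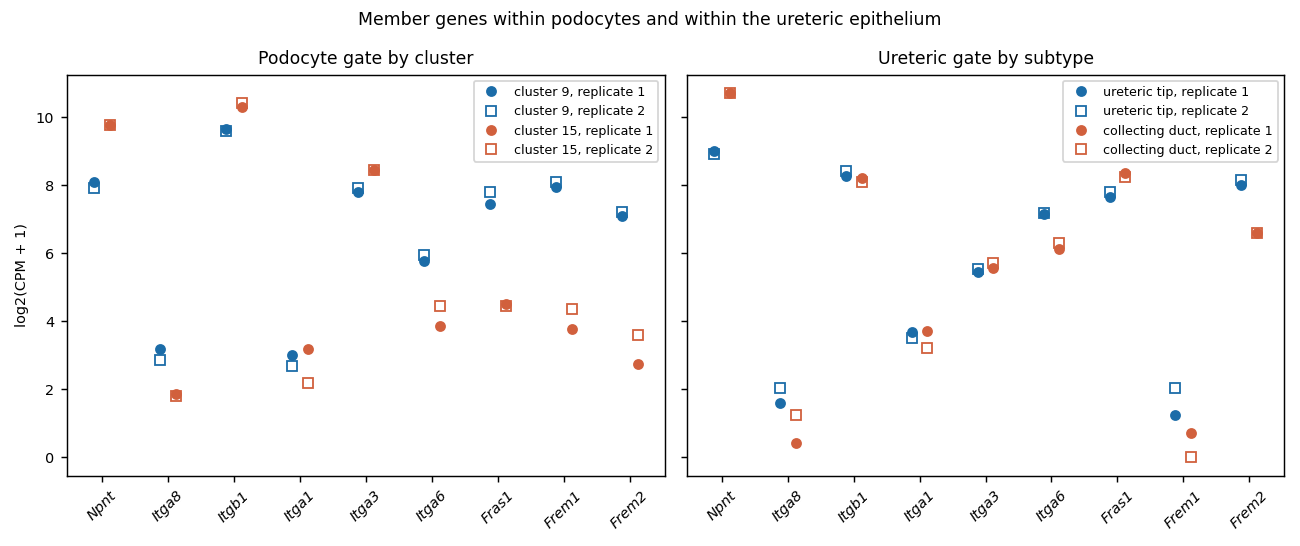
Levels of the 9 genes as log2(CPM + 1) in 2 clusters of the podocyte gate (left) and in 2 subtypes of the ureteric gate (right), with filled circles for replicate 1 and open squares for replicate 2. Fras1, Frem1 and Frem2 are higher and Npnt is lower in podocyte cluster 9 than in cluster 15. Npnt is lower and Frem2 higher in the ureteric tip than in the collecting duct.

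The ureteric tree was divided by markers into tip, which branches and carries Ret and Wnt11, and collecting duct, which carries Aqp2. The tip had 47 and 44 barcodes and the duct 66 and 51, and median depths differed in opposite directions in the 2 libraries (45532 and 20350 UMIs in the tip, 23705.5 and 29788 in the duct). Npnt stood at 516 and 481 CPM in the tip and at 1690 and 1680 CPM in the duct. Fras1 stood at 199 and 223 against 326 and 302 CPM. Frem2 went the other way, with 259 and 282 CPM in the tip and 96.8 and 95.7 CPM in the duct. Itga6 was also higher in the tip, 142 and 145 against 68.3 and 78.3 CPM. Itga3 lay close in both, with 43.1 and 45.3 CPM in the tip and 46.4 and 51.8 CPM in the duct. Itgb1 stood at 309 and 339 against 295 and 272 CPM. No test was run on this division, and the libraries of the 2 subtypes did not overlap for these 6 genes. Their counting intervals did overlap for Itga3, and for Itgb1 in replicate 1. Even the lower Npnt level of the tip was far above the 13.2 and 11.4 CPM of nephron progenitors.

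Stroma, the tissue targeted by Foxd1cre, was compared with nephron progenitors, its neighbour in the cortex. Itga1 was higher by 4.88 ± 0.21 on the log2 scale (29.5-fold, adjusted p = 3.2e-14), from 1.17 and 1.31 CPM to 40.7 and 34.4 CPM. The erythroid level of Itga1 was 1.47 and 3.99 CPM, so this fold is set against a progenitor level within free RNA. Frem1 (2.83 ± 0.19, 7.12-fold) and Itgb1 (1.75 ± 0.08, 3.37-fold) were higher. Itga8, found in both mesenchymal tissues, was higher in stroma by 0.56 ± 0.11 (1.47-fold, adjusted p = 0.00023). Cortical stroma taken alone had less Itga8 than progenitors, 51.4 and 42.8 against 122 and 119 CPM. Itga6 fell by 1.63 ± 0.20, Frem2 by 1.42 ± 0.30 and Npnt by 0.48 ± 0.15. For these 3 genes the stromal level lay below that of erythroid cells of the same library. The progenitor levels lay below the erythroid ones for Npnt and overlapped them for Itga6 and Frem2. In thinned barcodes, Npnt was seen in 5.88% of progenitors and 5.67% of erythroid barcodes, so its fall lies between levels not separable from free RNA. Itga6 was seen in 9.7% of progenitors against 2.66% of erythroid barcodes, and Frem2 in 3.86% against 1.23%. Whether these 2 exceed free RNA in progenitors was not tested. Npnt lost its call under a stricter gate (adjusted p = 0.093) and a 5% mitochondrial limit (adjusted p = 0.34). Fras1 (0.21 ± 0.20, adjusted p = 0.40) and Itga3 (-0.17 ± 0.21, adjusted p = 0.53) did not pass. The count was 4 higher and 3 lower of 9, against 55.6% of all genes called (27.4% higher and 28.2% lower), with medians of 0.21 and 0.

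Of the further genes 21 were higher and 7 lower in stroma, with a median of 1.16. Fn1, the gene of fibronectin, was higher by 6.53 ± 0.33 (adjusted p = 3.7e-13), at 920 and 758 CPM against 10.9 and 6.98 CPM. Itgb3 had a ratio of 9.49 (4.71 to 21.1, from 44 against 10 UMIs), and Itga2 gave 8 against 0 UMIs, at least 5.75-fold higher.

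Itga8 and Frem1 levels differed widely among stromal subtypes. Of 1899 stromal barcodes, 959 could be given a subtype. The subtype names, too, rest on markers alone, and the place of the cells in the kidney was not measured. Itga8 stood at 355 and 358 CPM in mesangial stroma and at 338 and 240 CPM in medullary stroma. Interstitial stroma had 156 and 168 CPM, cortical stroma 51.4 and 42.8 CPM and adventitial stroma 11.1 and 17.1 CPM. Frem1 stood at 294 and 230 CPM in interstitial, 259 and 219 CPM in medullary and 219 and 193 CPM in mesangial stroma, which overlapped one another in neighbouring pairs. Cortical stroma had 49.4 and 36.9 CPM of Frem1, and adventitial stroma 24.1 CPM in replicate 1 and 0 UMIs in replicate 2, where 3 counts would be 7.31 CPM. Fras1 stood at 72.2 and 53.6 CPM in adventitial stroma and at 78.9 and 20.7 CPM in interstitial stroma, which overlapped. Medullary stroma had 41.6 and 23.8 CPM of Fras1, cortical stroma 21.9 and 27.1 CPM and mesangial stroma 13.0 and 3.44 CPM.

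**Figure D5:**
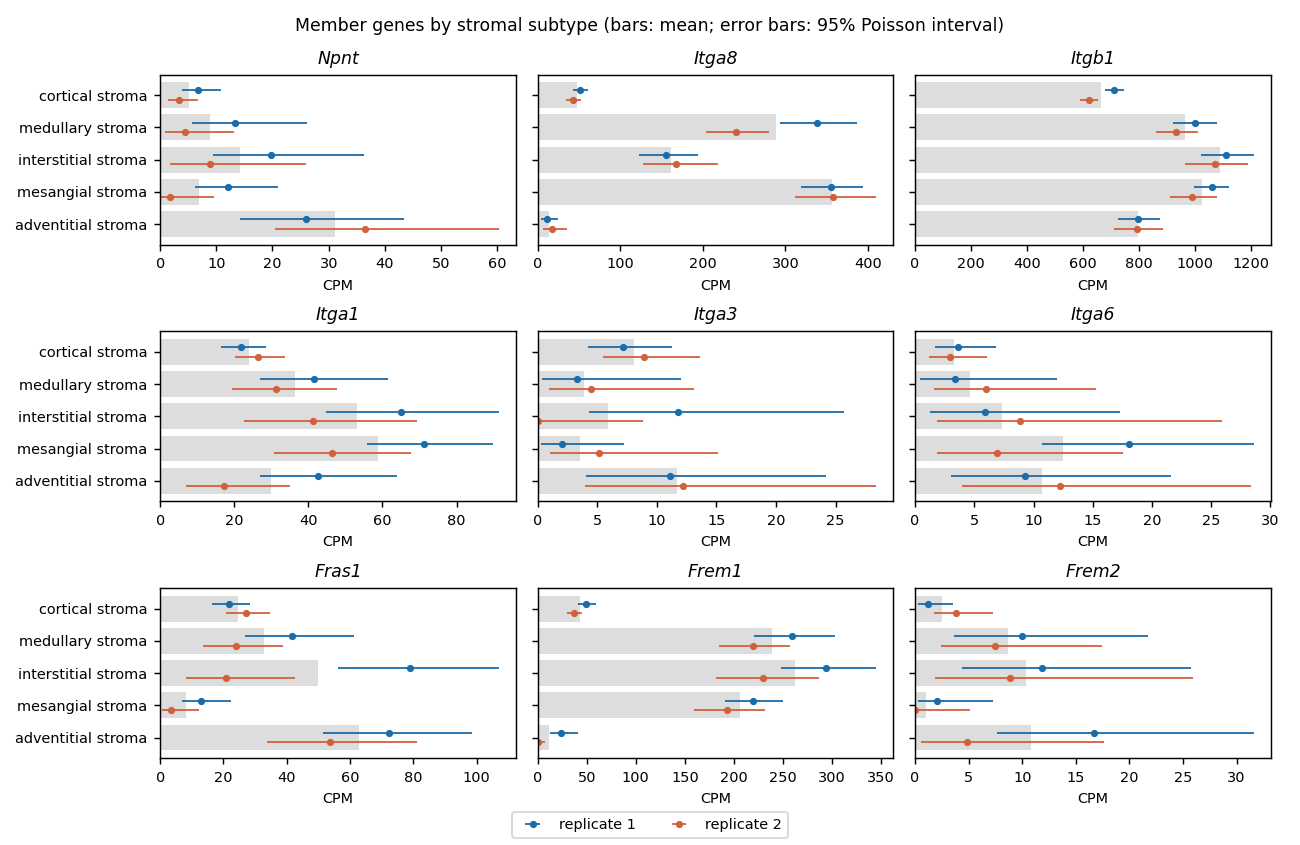
Level of the 9 genes (CPM, linear axis from 0, scaled per panel) in the 5 stromal subtypes. Points are the 2 libraries with 95% Poisson intervals (up to 3 counts where none was seen) and grey bars their means. Itga8 runs from 355 and 358 CPM in mesangial to 11.1 and 17.1 CPM in adventitial stroma, and Itga3, Itga6 and Frem2 stay under 20 CPM.

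Mesangial and cortical stroma were set against each other in a separate fit of the 5 subtypes. Itga8 was higher in mesangial stroma by 2.89 ± 0.15 on the log2 scale (7.39-fold, adjusted p = 9.4e-12), Frem1 by 2.22 ± 0.20 (4.65-fold), Itga1 by 1.27 ± 0.25 (adjusted p = 0.0012) and Itgb1 by 0.60 ± 0.09 (1.51-fold). Fras1 fell by 1.47 ± 0.46 (adjusted p = 0.039), from few UMIs, with -0.77 in replicate 1 and -2.95 in replicate 2. This call was lost under 5 alternative settings, with adjusted p from 0.10 to 0.40. Npnt (0.53 ± 0.62, adjusted p = 0.68) did not pass. Itga3, Itga6 and Frem2 had too few UMIs to be tested in this fit. Thus 4 of 6 tested genes were higher and 1 lower, against 12.5% of 8439 genes called (7.5% higher and 4.95% lower). The medians were 0.93 for the tested genes and -0.01 for all genes. The tested genes include those that passed the count filter through their high subtype. The count of calls was 3 of 6 with DESeq2, where 4.46% of all genes were called and Itga1 did not pass (adjusted p = 0.13). With a 5% mitochondrial limit it was 3 of 5 tested, beside 497 of 7102 genes, and Itga1 again did not pass (0.78, adjusted p = 0.24). Without the filter on low counts it was 6 of 9 tested, beside 7.88% of all genes. Without doublet removal it was 6 of 7 tested, beside 12.7%.

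Of the 36 further genes 21 were tested, 3 were higher and 2 lower, with a median of 0.14 against -0.01 for all genes. Gdnf, the branching factor downstream of alpha8 beta1 signalling, fell by 2.66 ± 0.20 (adjusted p = 4e-09), from 171 and 166 CPM in cortical to 30.1 and 22.4 CPM in mesangial stroma. Tnc, which encodes the matrix protein tenascin C, was higher by 2.61 ± 0.21, and Itgb8 was lower by a ratio of 2.92 (1.71 to 5.36, from 15 against 135 UMIs). Gdnf and Itga8 were thus in opposite order in these subtypes. In nephron progenitors Gdnf stood at 28.5 and 19.9 CPM.

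Frem1 and Itga8 were often seen in the same stromal barcode. Among thinned stromal barcodes both were seen in 22.9% and 20.6%, and the product of the separate shares was 17.2% and 13.9%. Within mesangial stroma both were seen in 37.0% and 39.3%, with products of 36.8% and 39.0%. In nephron progenitors Itga8 and Itgb1 were seen together in 24.4% and 29.1%, with products of 24.3% and 28.0%.

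Endothelial cells, which run through the stroma, were compared with it. Itga6 was higher by 5.73 ± 0.17 on the log2 scale (53.2-fold, adjusted p = 6.6e-17), and Itga3 by 2.95 ± 0.18 (7.75-fold). Npnt was higher by 1.59 ± 0.15, but its endothelial level, 29.1 and 23.2 CPM, overlapped that of erythroid cells. Frem1 fell by 5.47 ± 0.29, with -5.03 and -7.15 in the single libraries and a UMI ratio of 45.6 (34.1 to 62.5). Itga8 fell by 3.25 ± 0.14 and Fras1 by 3.20 ± 0.34, the latter with -2.98 and -3.87 in the single libraries. Itgb1 was higher by 0.21 ± 0.08 (1.15-fold, adjusted p = 0.032) and lost this call under 5 settings, with adjusted p from 0.055 to 0.32. Itga1 (-0.34 ± 0.15, adjusted p = 0.064) and Frem2 (-0.64 ± 0.46, adjusted p = 0.26) did not pass, though Itga1 did under 5 settings and Frem2 under 1. The count was 4 higher and 3 lower of 9, against 51.2% of all genes called (26.1% higher and 25.1% lower), with medians of -0.34 and -0.01. The endothelial levels of Frem1 (4.12 and 0.789 CPM) and Fras1 (2.91 and 1.26 CPM) and the stromal levels of Itga6 and Npnt lay below those of erythroid cells, so these folds are set against free RNA. This comparison shares its stromal sums with that of stroma against progenitors.

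Of the further genes 13 were higher and 14 lower in endothelial cells, with a median of -0.43. Gdnf was lower with a UMI ratio of 116 (64.9 to 234, from 11 against 1476 UMIs), and Tnc with one of 43.5 (30.7 to 63.7). Itga2 was higher with a ratio of 41.6 (20.8 to 97.3, from 289 against 8 UMIs).

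The mural gate is described by its clusters. In the Myh11-rich cluster Frem2 stood at 108 and 93.5 CPM and Fras1 at 12.4 and 8.13 CPM, from 3 and 2 UMIs. In the Ankrd1-led cluster with Pax8, Fras1 stood at 158 and 182 CPM and Frem2 at 35.5 and 28.1 CPM. Itga8 was low in the latter, 4.64 and 8.28 CPM, and 20.7 and 85.4 CPM in the former, where 5 and 21 UMIs stand behind it. The Ankrd1-led cluster had 3 and 5 Itga8 UMIs in the same order of libraries, and the whole mural gate had 192 and 120, so most lay in barcodes outside both clusters.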

How the data were processed

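Libraries were made from 3' ends on the 10x Chromium platform, per the labels' protocols. The deposited values are raw UMI counts per gene and barcode, in unfiltered matrices of 2720964 and 2654938 barcodes. The writing program is Cell Ranger 4 per the file headers, whereas the submitters' processing notes name Cell Ranger 6.0.1 and build mm10. RefSeq coordinates are those of GRCm38.p6.

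Barcodes with at least 2000 UMIs (6910 and 5917) were kept where mitochondrial UMIs were at most 10%, which removed 690 and 768. Scrublet (expected rate 6%, the top 0.8% per 1000 barcodes removed) took out 310 (4.98%) and 212 (4.12%). Counts were scaled to 10000 UMIs and log-transformed, and marker levels were standardised, with values above 3 SD set to 3. A barcode was typed where its best of 13 marker scores exceeded the next by at least 0.3 with at least 2 markers detected. A total of 933 barcodes lay within 0.1 of that limit, and 93.7% of typed barcodes lay in a cluster of the same name (35 clusters; 2000 variable genes, 30 components, 15 neighbours, Leiden resolution 1; scanpy 1.11.5). Of 110 listed marker entries 109 matched a feature. Stroma and ureteric epithelium were subdivided in the same way. Distal tubule (27 and 8 barcodes) and neural (10 and 4) types were too small to test.

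UMIs were summed per library and type and tested with edgeR 4.0.16 (R 4.3.3): TMM, filterByExpr, library as block, quasi-likelihood test, threshold 0.05. All types of a library come from the same sample, which is the source of the pairing. The fit of 11 types had 22 columns, 10 residual degrees of freedom and 15376 genes, and that of 5 stromal subtypes 10 columns, 4 degrees of freedom and 8439 genes. Markers counted towards library sizes and were not tested. Poisson, conditional and floor (3 counts) limits are at 95% or as stated and cover counting error only. Alternatives included DESeq2 1.42.0, and the closing section gives them.

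All 9 genes are named, and of the 36 further genes the 3 with the largest absolute log2 fold change among those called in each comparison. Genes most alike are the 3 of highest r. The genes, lists and markers were chosen with earlier results of these data known, and the gate's limits and the clusters described within types were chosen after the data were seen. Sequences were not used here.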

Additional observations from a re-analysis of the deposited data

How the results depend on the processing

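Across the tested alternatives, 464 of 492 fold changes of the 9 genes kept their side of the threshold, 14 lost a call, 14 gained one and 0 reversed. A change of sign was counted as kept where neither setting gave a call. With one library left out, 79 of 102 values moved by less than the spread and 23 by more; no test is possible there. Without the replicate block (library as a term), the number of the 9 genes called was 8 in ureteric epithelium, 8 in early nephron and 7 in stroma against nephron progenitors, 8 in podocytes against early nephron, 6 in endothelial cells against stroma and 4 of 6 tested in mesangial against cortical stroma. In the same order, 52.1%, 35.8%, 50.5%, 60.7%, 47.4% and 9.88% of all genes were called. The last comparison had 5 calls, and 3 with the DESeq2 Wald test and 3 of 5 tested at a mitochondrial limit of 5%. Over all genes, its calls went from 1051 to 376 and 497 in these settings. It had 6 calls of 9 tested without the filter on low counts and 6 of 7 without doublet removal, beside 7.88% and 12.7% of all genes. Ureteric epithelium against progenitors went from 8595 to 4230 calls, and early nephron against progenitors from 6667 to 3910, when barcodes were thinned, and the latter to 3823 at the 5% limit. At that limit too few ureteric barcodes remained for a fit. The type with the highest level was the same for all 9 genes with at least 5000 UMIs, without doublet removal, under the stricter gate and without replicate 2. It was the same for 8 without replicate 1 (Frem1 moved to podocytes) and when thinned (Itgb1 to podocytes), for 7 by clusters (Itgb1 and Frem1 to podocytes) and for 6 at the 5% limit, where Npnt, Fras1 and Frem2 lost the ureteric epithelium. Itga3, Itga6 and Frem2 had few UMIs in each stromal subtype, and whether depth accounts for this was not tested.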
